A study of Mus musculus with 16 samples.

Results

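The genes described here encode the enzymes that break down amino acids in the liver and the enzymes of the urea cycle. They were taken from the table by name from a list of such enzymes that was drawn up with earlier results of these data known, and all 38 described were present among the 25719 genes of the deposited table. Liver RNA came from 16 mice, with 1 library per mouse. Of the WT mice (C57BL6J), 4 ate a normal chow diet (NCD) and 5 ate the steatosis-steatohepatitis diet (SSD), which is rich in fat, fructose and cholesterol, for 3 weeks. Of the Klrk1-/- mice, 4 ate NCD and 3 ate SSD for the same time. Klrk1 encodes NKG2D, an activating receptor of NK and T cells, and the knockout is not limited to a cell type. Per the study's methods the mice were male, 8 to 12 weeks old when feeding began, and matched for age and sex. Whether the WT and Klrk1-/- mice were littermates is not given in the sources used here. Separate mice are the replicates, and the comparisons ask how each diet and genotype changed the level of these transcripts in whole liver.

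Hepatocytes take up amino acids from the portal blood and oxidise their carbon skeletons, and the ammonia that is set free is turned into urea. Mitochondrial Cps1 and Otc make citrulline from ammonia, bicarbonate and ornithine, and cytosolic Ass1 and Asl carry it on towards urea, while Nags makes the N-acetylglutamate that Cps1 needs to work. Periportal hepatocytes are known for urea synthesis and for the breakdown of glutamine and histidine. Transcripts of these enzymes are known to respond to feeding, glucagon and glucocorticoids.

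The values are normalized counts, the reads of a gene divided by 1 factor per library, and between 19892025 and 28936707 reads per library fell on genes. Hepatocyte markers were abundant in every library, with a summed level of 9 measured markers between 2037600 and 3483200 normalized counts. Klrk1 itself read 20.1 to 28.7 in NCD-fed and 33.0 to 71.1 in SSD-fed WT mice, against 1.23 to 8.71 and 0.966 to 4.29 in the Klrk1-/- mice. SSD-fed WT mouse 1 was the highest of its group for 3 sets of markers. Its summed level was 19133 for monocyte and macrophage markers (7898 to 13931 in the other 4), 27054 for stellate cell markers (6269 to 11415) and 1612 for dividing cell markers (217 to 1087). Mouse 4 was next for macrophage and dividing cell markers, with 13931 and 1087. Mice 2, 3 and 5 had 7898 to 8879 and 217 to 512. The counts of genes passing for the diet in WT mice and for the genotypes on SSD are given with and without mouse 1, as are values of some genes. No marker call is given without it.

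SSD feeding lowered most of these transcripts in WT mice. Of the 38 genes, 33 were lower at an adjusted p under 0.05 (limma) and none was higher, with 35 lower and 0 higher at an unadjusted p under 0.05 (22.7% of all tested genes in each direction), and with 0 higher by edgeR and by DESeq2. Among all 13091 genes tested, 17.6% were lower and 17.3% higher. These are abundant transcripts, and of the genes with a mean of at least 1000 normalized counts 32.8% were lower, against 32 of the 37 described here that reach that mean. The median log2 fold change was -0.88 over the 38 genes. Of the calls, 14 were falls of more than 2-fold, against 379 of all 13091 genes. All SSD-fed WT mice lay below all NCD-fed WT mice for 33 of the genes, a separation that 15.5% of all tested genes showed. Without SSD-fed WT mouse 1, 32 genes passed as lower, against 17.4% of all genes, Bckdha being the gene lost.

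In Klrk1-/- mice the diet lowered 25 of the 38 genes and raised 1, Glud1, while 16% of 12904 tested genes were lower and 13.4% higher. Among genes with a mean of at least 1000 normalized counts 26.1% were lower, against 24 of 37 here. The median log2 fold change was -0.53. SSD-fed Klrk1-/- mice did not overlap with NCD-fed Klrk1-/- mice, and lay below them, for 27 of the genes, against 19.7% of all tested genes. The fold change was more negative in WT than in Klrk1-/- mice for 33 of the 38 genes, the exceptions being Bckdhb, Bhmt, Ftcd, Kynu and Tat. Passing in both genotypes were 24 genes, 9 passed as lower only in WT mice (Amdhd1, Bckdha, Cbs, Gldc, Hgd, Hibch, Hpd, Mat1a and Nags), 1 only in Klrk1-/- mice (Bckdhb), and Cdo1, Glud1, Got2 and Tdo2 in neither. Whether a diet effect differs between the genotypes was tested separately and is given further on.

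**Figure D1:**
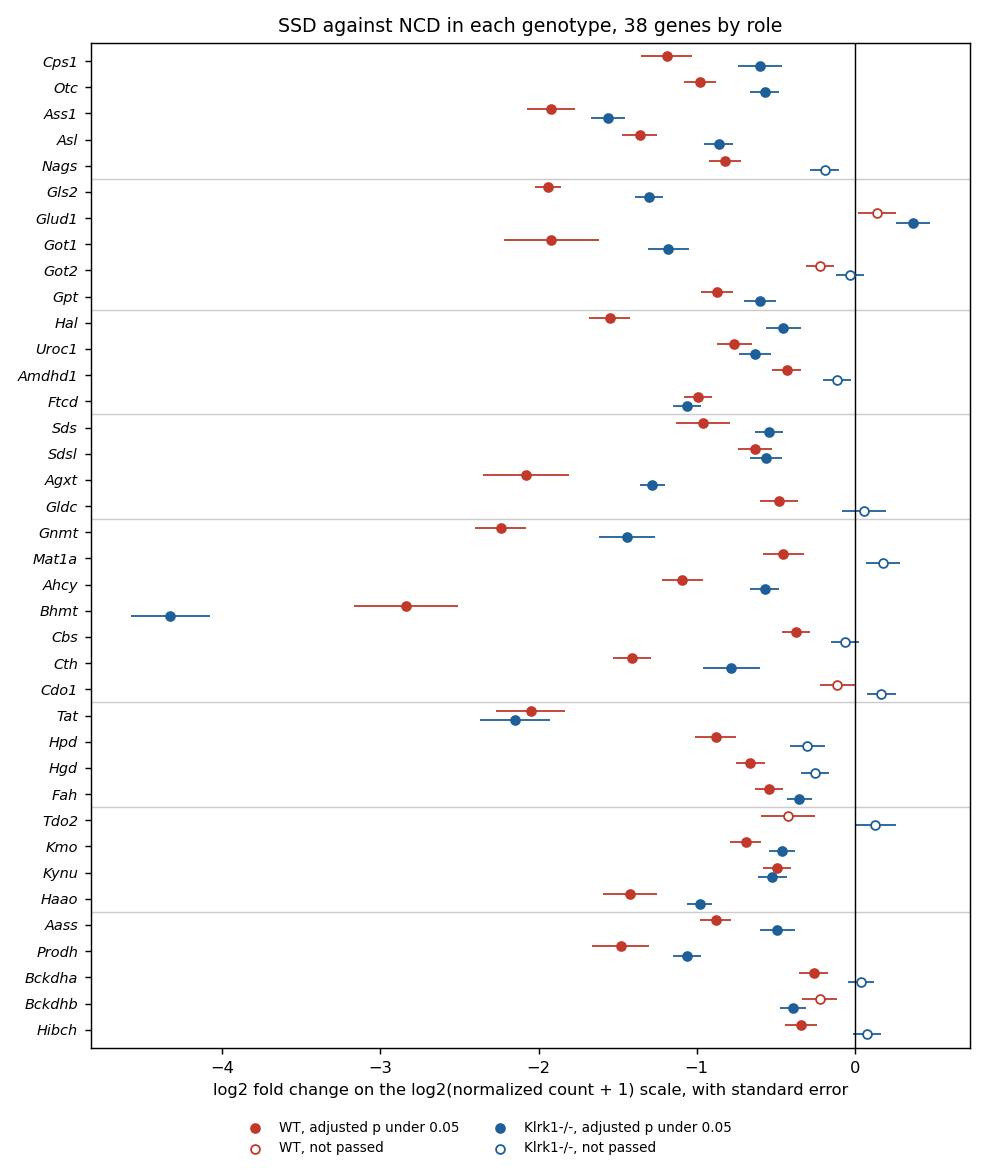
Log2 fold change of SSD against NCD for the 38 genes, ordered by role and divided by grey lines, in WT mice (red) and Klrk1-/- mice (blue). Horizontal lines are standard errors and filled circles passed an adjusted p of 0.05. Most circles lie left of 0, Bhmt lies farthest left at -2.84 in WT and -4.33 in Klrk1-/- mice, and Glud1 is right of 0 in both.

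The share of all normalized counts that fell on the 38 genes dropped from 2.50% ± 0.21 (SD, n = 4) to 1.56% ± 0.07 (n = 5) in WT mice and from 2.33% ± 0.17 (n = 4) to 1.76% ± 0.16 (n = 3) in Klrk1-/- mice. The ranges of NCD-fed and SSD-fed mice did not overlap in either genotype. In whole liver, fewer hepatocytes and less of a transcript per hepatocyte cannot be told apart. General hepatocyte markers had medians closer to 0, a difference that was not tested. Of 9 tested, 4 fell in WT mice (median log2 fold change -0.46) and 5 in Klrk1-/- mice (median -0.38), and their summed level ran from 2863700 to 3205900 in NCD-fed WT, 2037600 to 2305500 in SSD-fed WT, 2702900 to 3483200 in NCD-fed Klrk1-/- and 2433800 to 2608700 in SSD-fed Klrk1-/- mice. Of 6 tested periportal markers, 3 fell and 1 rose in WT mice. Of the same markers 3 fell and 2 rose in Klrk1-/- mice. All 9 hepatocyte markers were below 0 in WT mice, from -0.82 to -0.09, and 6 were lower in edgeR and in DESeq2. Macrophage markers rose in SSD-fed WT mice for 7 of 12 tested. Their summed levels were 5695 to 6353 on NCD and 7898 to 19133 on SSD. Stellate cell markers rose for 4 of 7, endothelial markers for 4 of 5 and dividing cell markers for 5 of 5 (median log2 fold change 2.17). Among NCD-fed mice of both genotypes only 4 of the 5 dividing cell markers reached the minimum mean for testing. The other could enter the test in WT mice through the SSD-fed mice, so its rise is not independent of that filter. In WT mice 3 of 8 pericentral hepatocyte markers fell. Stellate cell markers rose in Klrk1-/- mice for 5 of 7 and macrophage markers for 2 of 12, pericentral markers fell for 4 of 8, and the 4 tested dividing cell markers had a median of -0.35. The part of these cells in the result was not tested. Neutrophil markers summed to 76.5 to 184 normalized counts in NCD-fed and 104 to 272 in SSD-fed WT mice, with Ly6g, 1 of the 5, at 0 in all mice. T and NK cell markers summed to 147 to 164 in NCD-fed and 86.5 to 143 in SSD-fed WT mice. In Klrk1-/- mice they summed to 151 to 225 and 103 to 118. Of the 4 tested, 3 were above 0 and 1 below in WT mice, and 2 and 2 in Klrk1-/- mice.

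The scale of the values matters for the smaller changes. When every mouse was scaled to the same total, the median of all genes moved to a log2 fold change of 0.342 for SSD against NCD in WT mice and 0.253 in Klrk1-/- mice. Relative to zero on that scale, 24 of the genes were lower and 1 higher (Glud1) in WT mice, with a median of -0.53, and 18 were lower and 6 higher (Bckdha, Cdo1, Glud1, Hibch, Mat1a and Tdo2) in Klrk1-/- mice, with a median of -0.27. Of all tested genes 5.50% were lower and 48.2% higher on that scale in WT mice, and 6.25% lower and 37.4% higher in Klrk1-/- mice. Log2 fold changes below are on the authors' normalization unless another scale is named.

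Short stretches of promoter are shown for 4 of the genes. Bhmt had the largest fall, and Got1 held the only match to a motif searched from the outset. Hal and Nags passed the main test of a diet effect that differs between genotypes, with limits for Nags given further on. The sequences are the 250 bases before the transcription start, taken from RefSeq on GRCm38.p6 and printed 5′ to 3′ on the gene's strand, while gene positions elsewhere follow the deposited table and its build, GRCm39. Capitals mark letters that match a searched motif on either strand.
Bhmt, chr13:93637759-93638008, minus strand: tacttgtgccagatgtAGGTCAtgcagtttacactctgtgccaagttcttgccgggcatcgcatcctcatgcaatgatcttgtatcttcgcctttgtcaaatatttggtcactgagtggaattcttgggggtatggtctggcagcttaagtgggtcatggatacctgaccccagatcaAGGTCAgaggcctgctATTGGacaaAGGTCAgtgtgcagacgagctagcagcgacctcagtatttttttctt
Hal, chr10:93488518-93488767, plus strand: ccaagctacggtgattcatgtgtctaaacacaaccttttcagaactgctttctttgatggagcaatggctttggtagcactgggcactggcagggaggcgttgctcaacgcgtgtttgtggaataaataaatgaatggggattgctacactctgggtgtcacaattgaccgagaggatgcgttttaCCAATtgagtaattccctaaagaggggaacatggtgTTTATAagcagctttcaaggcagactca
Nags, chr11:102145263-102145512, plus strand: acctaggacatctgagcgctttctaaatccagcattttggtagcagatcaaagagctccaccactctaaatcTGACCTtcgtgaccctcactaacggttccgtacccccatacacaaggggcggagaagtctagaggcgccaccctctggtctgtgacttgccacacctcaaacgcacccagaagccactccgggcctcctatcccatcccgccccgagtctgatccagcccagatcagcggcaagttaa
Got1, chr19:43524606-43524855, minus strand: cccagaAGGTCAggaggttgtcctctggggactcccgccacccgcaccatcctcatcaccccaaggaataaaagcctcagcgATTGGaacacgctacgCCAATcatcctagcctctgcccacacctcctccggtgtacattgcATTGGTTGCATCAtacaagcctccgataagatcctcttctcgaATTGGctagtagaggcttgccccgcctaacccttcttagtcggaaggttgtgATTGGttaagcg

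RefSeq windows from 250 bases before to 50 bases after the start were at hand for 28 of the 38 genes (29 windows), and each motif was counted on both strands in these and in all 32851 windows. The C/EBP-ATF element TGATGNAA was in 1 of the 29, that of Got1, as TTGCATCA starting 102 bases before the start, and in 3.969% of all windows. The cAMP response element TGACGTCA (1.79% of all windows), the C/EBP core TTGCGCAA (0.183%), the HNF4A letters CAAAGTCCA (0.475%) and the palindromic glucocorticoid response element (0.049%) were in 0 of the 29. A further 3 motifs were searched after the values had been seen. The nuclear receptor half-site AGGTCA was in 12 of the 29 windows and in 16.255% of all windows, and Bhmt held it at 3 places. CCAAT was in 14 of the 29 and in 37.408% of all windows, and TATAAA in 5 of the 29 (Ftcd, Got2, Hal, Hgd and Tdo2) and in 13.616% of all. A match describes letters only, and no binding was measured.

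All 5 urea cycle genes described fell on SSD in WT mice and 4 of the 5 in Klrk1-/- mice, Nags being the one that did not pass there. The median log2 fold change of the 5 was -1.19 in WT and -0.60 in Klrk1-/- mice. Cps1 (ENSMUSG00000025991, chr1:67162185-67270418 on GRCm39), the carbamoyl phosphate synthetase that commits ammonia to the cycle, read 66596, 80142, 65336 and 51450.2 normalized counts in NCD-fed and 25559, 23974, 33219.8, 27855 and 33887 in SSD-fed WT mice. Klrk1-/- mice had 51799.8, 48634, 43542 and 62367 on NCD and 33004, 28815 and 40526 on SSD. Within each genotype every SSD-fed mouse was below every NCD-fed mouse, and the fall was 2.27-fold in WT (adjusted p = 0.000194) and 1.51-fold in Klrk1-/- mice (adjusted p = 0.00939).

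Otc (chrX:10118544-10187263), ornithine transcarbamylase, read 17798, 12981, 15509 and 16211 in NCD-fed and 7800.0, 7812, 7673, 8406 and 7780.0 in SSD-fed WT mice, and 13098, 13292, 13094 and 15659.7 on NCD and 9213, 9492 and 9001 on SSD in the Klrk1-/- mice. The 5 SSD-fed WT mice were close together, and the diets did not overlap in either genotype. Its log2 fold change was -0.98 ± 0.10 (SE, adjusted p = 2.9e-05) in WT and -0.57 ± 0.09 (SE, adjusted p = 0.000625) in Klrk1-/- mice. Ass1 (chr2:31360219-31410684), argininosuccinate synthase, had the largest fall of the cycle. It read 40447, 41514, 38088 and 35856 in NCD-fed and 14196, 8002, 8886, 10271 and 10943 in SSD-fed WT mice, a 3.79-fold fall (adjusted p = 3.31e-06). Among Klrk1-/- mice the values of 40339, 37566, 37522 and 43867 on NCD and 14535, 11492 and 14766 on SSD were 2.94-fold apart (adjusted p = 1.77e-06). On either diet the genotypes overlapped.

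Asl (chr5:130040099-130058088), argininosuccinate lyase, read 15579, 17596, 15762 and 13721 in NCD-fed and 4906, 5979, 6516, 6607 and 6641 in SSD-fed WT mice. Klrk1-/- mice read 15629.9, 12503, 14553 and 15125 on NCD and 7967, 8046 and 7733 on SSD. The SSD-fed Klrk1-/- mice were all above the SSD-fed WT mice, yet the difference of 0.38 ± 0.11 (SE, adjusted p = 0.0866) did not pass, and without SSD-fed WT mouse 1 it was 0.30 ± 0.07 (SE, adjusted p = 0.0435). Nags (chr11:102036339-102040303) read 2343, 1935, 1930.5 and 1815 in NCD-fed and 994, 1296, 1172, 1204 and 1026 in SSD-fed WT mice, -0.82 ± 0.10 (SE, adjusted p = 0.000144). In Klrk1-/- mice it read 1832, 1914, 1795 and 1759 on NCD and 1769, 1409 and 1630.2 on SSD, and the diets overlapped (-0.19 ± 0.09, SE, adjusted p = 0.124).

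**Figure D2:**
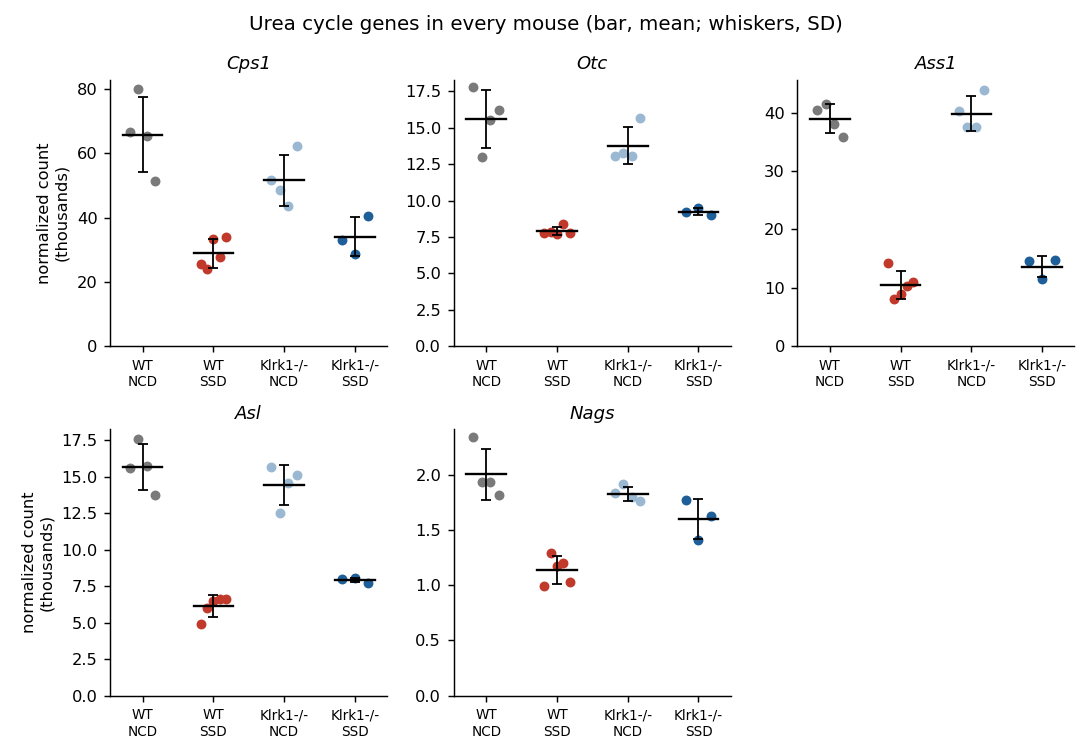
Normalized counts (axis in units of 1000) of 5 urea cycle genes, 1 point per mouse, with the group mean as a bar and the SD as whiskers (n = 4, 5, 4 and 3 from left to right). In every panel the SSD-fed WT mice lie below the NCD-fed WT mice, and for Otc, Asl and Nags the SSD-fed Klrk1-/- mice lie above the SSD-fed WT mice without overlap.

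Of the 5 genes of glutamine, glutamate and the aminotransferases, 3 fell in both genotypes (Gls2, Got1 and Gpt). Gls2 (chr10:128030326-128045873), the liver glutaminase, read 10311, 10043, 9199 and 10326 in NCD-fed and 2912, 2453, 2514, 2438 and 2662 in SSD-fed WT mice, a 3.84-fold fall (adjusted p = 2.69e-08). It read 9790.4, 10020.4, 11029.6 and 11029.8 on NCD and 4059, 3931 and 4771 on SSD in Klrk1-/- mice, a 2.47-fold fall (adjusted p = 1.6e-06). The 4 groups thus ordered with SSD-fed WT lowest, SSD-fed Klrk1-/- next and both NCD groups highest. Got1 (chr19:43488191-43513044), the cytosolic aspartate aminotransferase, read 3512, 4082, 5598 and 3415 on NCD and 1729, 624, 806, 879 and 1842 on SSD in WT and 3634, 4449.6, 4129 and 5204 on NCD and 1855, 1624 and 2293 on SSD in Klrk1-/- mice. SSD-fed WT mice 1 and 5 were about as high as the SSD-fed Klrk1-/- mice, and the other 3 were lower. The falls were -1.92 ± 0.30 (SE, adjusted p = 0.000545) and -1.18 ± 0.13 (SE, adjusted p = 6.76e-05). Gpt, the alanine aminotransferase, was -0.87 ± 0.10 (SE, adjusted p = 5.02e-05) in WT and -0.60 ± 0.10 (SE, adjusted p = 0.000907) in Klrk1-/- mice. The mitochondrial counterpart of Got1, Got2, changed least among the genes of this group that went down, with 8274 ± 484 (SD, n = 4) on NCD and 7101 ± 605 (n = 5) on SSD in WT mice, -0.22 ± 0.09 (SE, adjusted p = 0.0715). Glud1, glutamate dehydrogenase, rose by 0.37 ± 0.11 (SE, adjusted p = 0.0242) in Klrk1-/- mice and was 0.14 ± 0.12 (SE, adjusted p = 0.389) in WT mice. The call in Klrk1-/- mice was lost without NCD-fed mouse 1 (adjusted p = 0.0522), NCD-fed mouse 2 (0.0621), SSD-fed mouse 1 (0.0907) or SSD-fed mouse 3 (0.0846).

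The 4 genes of histidine breakdown, which act in sequence in the order Hal, Uroc1, Amdhd1 and Ftcd, all fell in WT mice (median log2 fold change -0.88), and 3 fell in Klrk1-/- mice (median -0.54). Hal (chr10:93324630-93355166), histidine ammonia-lyase, opens the pathway. It read 11565, 11056, 9643 and 9611 in NCD-fed and 2950.1, 4066, 4270.2, 2959 and 3732 in SSD-fed WT mice, a 2.94-fold fall (adjusted p = 4.68e-06). The Klrk1-/- mice had 10699, 10008, 11597 and 11704 on NCD and 7966, 6927 and 9498 on SSD, a 1.36-fold fall (adjusted p = 0.0104). The lowest SSD-fed Klrk1-/- mouse was above the highest SSD-fed WT mouse. Ftcd (chr10:76411482-76426172), which closes the pathway by passing the formimino group to folate, read 12956, 13733, 14015 and 14989.8 on NCD and 6387, 7575, 7536, 6291 and 7372 on SSD in WT and 15932, 17339.5, 19501 and 16604 on NCD and 8107, 8231 and 8522 on SSD in Klrk1-/- mice. The diets did not overlap, with log2 fold changes of -0.99 ± 0.09 (SE, adjusted p = 1.6e-05) in WT and -1.06 ± 0.09 (SE, adjusted p = 6.12e-06) in Klrk1-/- mice. Uroc1, the urocanase between Hal and Amdhd1, was -0.76 ± 0.11 (SE, adjusted p = 0.000261) in WT and -0.63 ± 0.10 (SE, adjusted p = 0.000669) in Klrk1-/- mice. Amdhd1, the imidazolonepropionase, had the smallest change of the group, -0.43 ± 0.09 (SE, adjusted p = 0.0026) in WT and -0.11 ± 0.09 (SE, adjusted p = 0.408) in Klrk1-/- mice. Hal and Amdhd1 are neighbours on chromosome 10, on opposite strands with 4033 bases between them.

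Genes of serine, glycine and glyoxylate breakdown fell in 4 of 4 cases in WT and 3 of 4 in Klrk1-/- mice. Agxt (chr1:93062962-93073143), alanine-glyoxylate aminotransferase, read 8562, 6479, 7032 and 6837 in NCD-fed and 3646, 1078, 1571, 1512 and 1524 in SSD-fed WT mice. SSD-fed WT mouse 1 read more than the other 4 mice of its group, and still lay below all NCD-fed mice. The fall was 4.22-fold (adjusted p = 0.000147), and 5.11-fold without mouse 1 (adjusted p = 8.42e-08). In Klrk1-/- mice Agxt read 8771, 8382, 8587 and 9308 on NCD and 3628, 3383 and 3836 on SSD, a 2.42-fold fall (adjusted p = 5.49e-07). Gldc, which decarboxylates glycine in the glycine cleavage system, changed least, from 4999 ± 649.9 (SD, n = 4) to 3591 ± 448 (n = 5) in WT mice (adjusted p = 0.00847, limma), and was 0.06 ± 0.14 (SE, adjusted p = 0.755) in Klrk1-/- mice. Sds and Sdsl, a serine dehydratase and its relative, lie 3715 bases apart on chromosome 5 and fell in WT mice, with log2 fold changes of -0.96 ± 0.17 (SE, adjusted p = 0.00135) and -0.63 ± 0.11 (SE, adjusted p = 0.00129).

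Genes of methionine and cysteine held the widest spread of changes, with 6 of 7 lower in WT and 4 of 7 in Klrk1-/- mice. Bhmt (chr13:93753183-93774469), which remethylates homocysteine with betaine, had the largest fall of the 38 genes. It read 52865, 57219, 68710.5 and 59108 in NCD-fed and 20442, 7256, 9771, 5590.2 and 4750.1 in SSD-fed WT mice, a 7.17-fold fall (adjusted p = 7.89e-05). Mouse 1 was the highest SSD-fed WT mouse here too, and the fall was 8.99-fold without it (adjusted p = 1.59e-07). In Klrk1-/- mice Bhmt read 96972, 70148, 70951 and 73068 on NCD and 6596, 2580.2 and 3299 on SSD, a 20.1-fold fall (adjusted p = 3.29e-07). SSD-fed mice of the genotypes overlapped, and the difference between the diet effects, -1.49 ± 0.49 (SE, adjusted p = 0.145), did not pass.

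Gnmt (chr17:47036590-47040094), which uses S-adenosylmethionine to methylate glycine, read 29767, 29546, 23928 and 17931 on NCD and 4751, 5126, 6612, 4631 and 5389 on SSD in WT and 19265, 19689, 16152 and 18874 on NCD and 6467, 4948 and 9746 on SSD in Klrk1-/- mice. The diets did not overlap in either genotype, with falls of 4.71-fold (adjusted p = 1.5e-06) and 2.72-fold (adjusted p = 0.000135). Ahcy (chr2:154901230-154916417), which splits S-adenosylhomocysteine, read 14574, 14343, 14188 and 12841 on NCD and 4712, 7029, 7523, 6416 and 7538 on SSD in WT and 12729, 12376, 11868 and 13868 on NCD and 9146, 7954 and 8642 on SSD in Klrk1-/- mice, with log2 fold changes of -1.09 ± 0.13 (SE, adjusted p = 0.000103) and -0.57 ± 0.09 (SE, adjusted p = 0.000618). Cth (chr3:157599885-157630714), cystathionine gamma-lyase, read 10859, 9366, 9115 and 7692 on NCD and 4089, 3733, 3086, 3151 and 3281 on SSD in WT and 8794, 6003, 7015 and 10642 on NCD and 5416, 3743 and 4821 on SSD in Klrk1-/- mice. All SSD-fed mice were lower than all NCD-fed mice of their genotype for both genes. Cdo1, the cysteine dioxygenase, moved least, with 36803 ± 2561 (SD, n = 4) on NCD and 34120.0 ± 3187 (n = 5) on SSD in WT mice, -0.11 ± 0.11 (SE, adjusted p = 0.472). Mat1a and Cbs fell in WT mice, with log2 fold changes of -0.45 ± 0.13 (SE, adjusted p = 0.0161) and -0.37 ± 0.09 (SE, adjusted p = 0.0099), and were 0.18 ± 0.11 (SE, adjusted p = 0.232) and -0.06 ± 0.09 (SE, adjusted p = 0.651) in Klrk1-/- mice. The WT call of Mat1a was lost without NCD-fed WT mouse 3 (adjusted p = 0.0548).

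**Figure D3:**
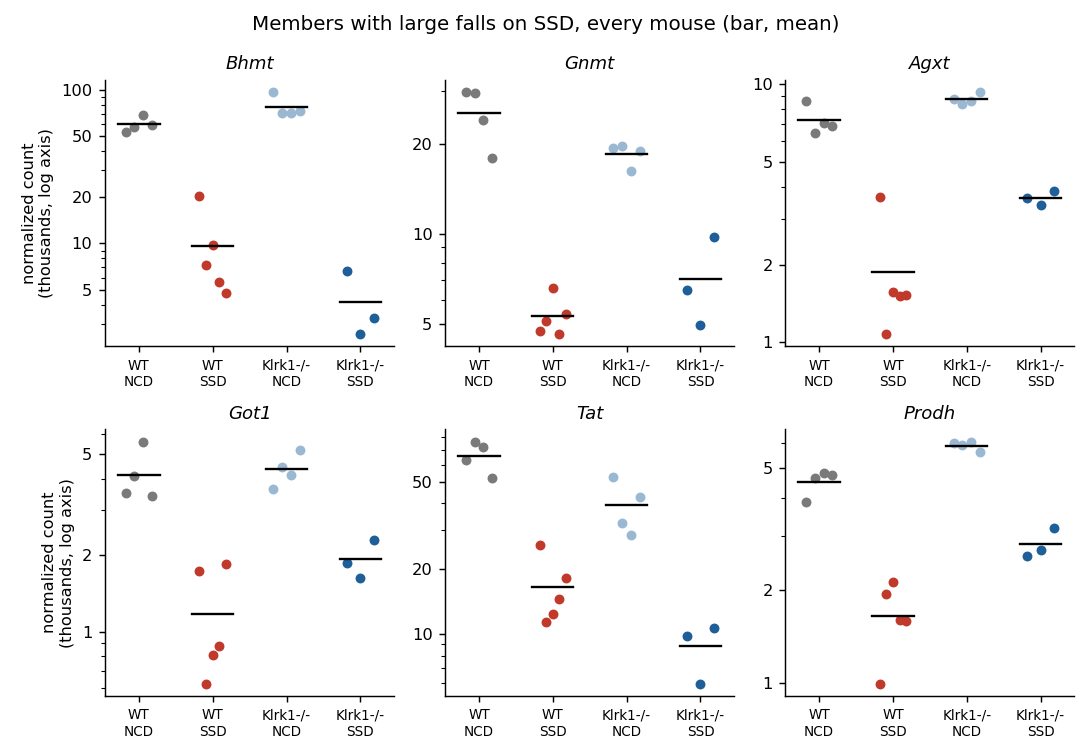
Normalized counts (axis in units of 1000), on a log axis, of 6 genes that fell by more than 2-fold on SSD in both genotypes, 1 point per mouse with the arithmetic mean as a bar. The highest SSD-fed WT point for Bhmt, Agxt and Tat is mouse 1 of that group, which is also the lowest SSD-fed WT point for Prodh.

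All 4 genes of tyrosine breakdown fell in WT mice (median log2 fold change -0.77), and 2 in Klrk1-/- mice (median -0.33). Tat (chr8:110717069-110726435), the tyrosine aminotransferase, read 62946, 76438, 72017 and 52245 in NCD-fed and 25809, 11368, 12463, 14507 and 18219 in SSD-fed WT mice. The values of Klrk1-/- mice were 52473, 32392, 28612 and 42533 on NCD and 9801, 5953 and 10698 on SSD. The falls of 4.14-fold (adjusted p = 4.03e-05) and 4.44-fold (adjusted p = 3.47e-05) separated the diets fully in both genotypes, and the Klrk1-/- mice had the lower mean on both diets. Fah, the last enzyme of the pathway, had the smallest change in WT mice, -0.54 ± 0.09 (SE, adjusted p = 0.00127), and fell, with a log2 fold change of -0.35 ± 0.08 (SE, adjusted p = 0.00869) in Klrk1-/- mice. Hpd and Hgd, which act between Tat and Fah, fell, with log2 fold changes of -0.88 ± 0.13 (SE, adjusted p = 0.000327) and -0.66 ± 0.09 (SE, adjusted p = 0.000216) in WT mice, and were -0.30 ± 0.11 (SE, adjusted p = 0.0534) and -0.25 ± 0.09 (SE, adjusted p = 0.06) in Klrk1-/- mice.

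For tryptophan, 3 of 4 genes fell in each genotype (Kmo, Kynu and Haao). Haao (chr17:84138585-84155392), the dioxygenase near the end of the kynurenine pathway, read 19146, 15865, 17164 and 16339 in NCD-fed and 4144, 8080.2, 7527, 6668 and 6329 in SSD-fed WT mice, and 18896, 19640.2, 20283 and 19597 on NCD and 9934, 10375 and 9602 on SSD in Klrk1-/- mice. The 3 SSD-fed Klrk1-/- mice were above all SSD-fed WT mice and below all NCD-fed mice. Its falls were -1.42 ± 0.17 (SE, adjusted p = 7.89e-05) and -0.98 ± 0.08 (SE, adjusted p = 4.64e-06). Kmo and Kynu, which act on kynurenine and its hydroxylated form, were -0.69 ± 0.10 (SE, adjusted p = 0.000236) and -0.49 ± 0.09 (SE, adjusted p = 0.00134) in WT mice. Tdo2, the dioxygenase that opens the pathway, had the smallest change, -0.42 ± 0.17 (SE, adjusted p = 0.0795) in WT and 0.13 ± 0.13 (SE, adjusted p = 0.488) in Klrk1-/- mice, with overlapping diets in both.

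Of the 5 genes for lysine, proline and branched-chain amino acids, 4 fell in WT and 3 in Klrk1-/- mice. Prodh (chr16:17878221-17908067), proline dehydrogenase, read 3871, 4615, 4786 and 4749 on NCD and 998, 1952, 2136, 1605 and 1587 on SSD in WT and 5989, 5904, 6074 and 5602 on NCD and 2593, 2703 and 3193 on SSD in Klrk1-/- mice. The diets did not overlap, with falls of -1.48 ± 0.18 (SE, adjusted p = 0.000106) and -1.06 ± 0.09 (SE, adjusted p = 5.35e-06), and on each diet all Klrk1-/- mice were above all WT mice. Bckdhb, a subunit of the branched-chain ketoacid dehydrogenase, had the smallest change in WT mice, -0.22 ± 0.11 (SE, adjusted p = 0.142), and fell, with a log2 fold change of -0.39 ± 0.08 (SE, adjusted p = 0.00376) in Klrk1-/- mice. Its partner Bckdha fell, with a log2 fold change of -0.26 ± 0.09 (SE, adjusted p = 0.0365) in WT mice, a call that was lost without any 1 of 8 of the 9 mice (adjusted p between 0.0503 and 0.0889) and whose value was 0.09 with mice scaled to the same total, below the median of all genes on that scale (0.342), and 0.06 after quantile normalization. Bckdha was 0.04 ± 0.08 (SE, adjusted p = 0.766) in Klrk1-/- mice. Aass was -0.88 ± 0.10 (SE, adjusted p = 5.76e-05) in WT mice, and Hibch, which acts in valine breakdown, was -0.34 ± 0.10 (SE, adjusted p = 0.017) in WT and 0.08 ± 0.09 (SE, adjusted p = 0.542) in Klrk1-/- mice.

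The genotypes were then compared on SSD, to ask whether mice without NKG2D kept other levels of these transcripts on the diet. In SSD-fed mice, 7 of the 38 genes were higher in Klrk1-/- than in WT mice and none was lower, against 1.22% higher and 1.68% lower among 13116 tested genes. Among genes with a mean of at least 1000 normalized counts 2.36% were higher, and the 7 are all of that kind. At an unadjusted p under 0.05 there were 25 higher and 2 lower, against 11% and 11.8% of all genes. There were by edgeR 5 higher and 0 lower, and by DESeq2 15 higher and 1 lower, where edgeR called 1.07% of all genes higher and DESeq2 4.08% higher and 5.22% lower. The median log2 fold change was 0.33, and for 18 genes all Klrk1-/- mice were above all WT mice, as for 9.19% of tested genes. The 7 genes are Hal, Hpd, Gls2, Amdhd1, Nags, Fah and Aass, and all 7 were lower on SSD in WT mice, a comparison that uses the same SSD-fed WT mice.

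Hal had the largest difference, 3596 ± 616 (SD, n = 5) in WT against 8130.5 ± 1293 (n = 3) in Klrk1-/- mice, 2.27-fold (adjusted p = 0.00588, limma). With Amdhd1, at 0.55 ± 0.09 (SE, adjusted p = 0.0139), 2 of the 4 histidine genes were higher. Of the tyrosine genes Hpd, which makes homogentisate, was 1.65-fold higher (0.72 ± 0.13 (SE, adjusted p = 0.023)) and Fah 1.32-fold (0.41 ± 0.09 (SE, adjusted p = 0.0488)). Gls2 was 1.64-fold higher (0.71 ± 0.09 (SE, adjusted p = 0.00666)). In the urea cycle Nags was 0.49 ± 0.11 (SE, adjusted p = 0.0434), while Cps1, Otc, Ass1 and Asl had log2 fold changes of 0.23 to 0.40 that did not pass. Aass, which starts lysine breakdown, was 0.38 ± 0.09 (SE, adjusted p = 0.0462). Exact two-sided permutation gave p = 0.0357, the smallest it can give with 3 against 5 mice, for each of the 7. It gives this value to every gene whose groups do not overlap, here 18 higher and 1 lower of the 38. The 7 were chosen from the same mice, so it adds nothing to that choice.

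**Figure D4:**
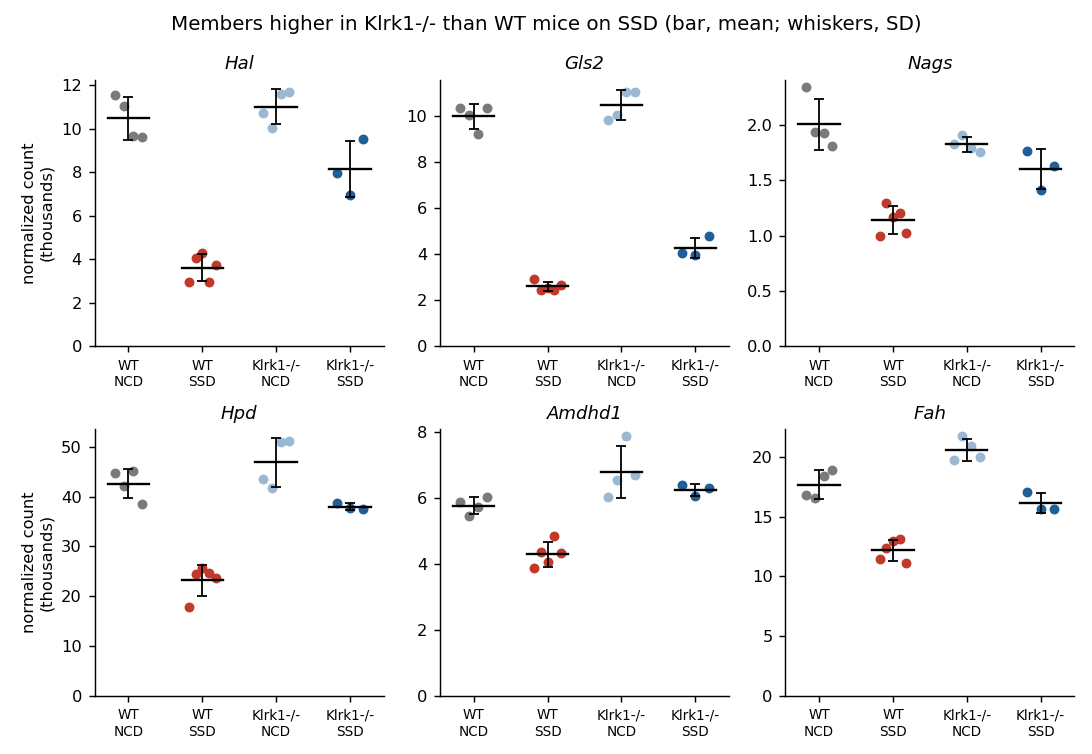
Normalized counts (axis in units of 1000) of 6 of the 7 genes that were higher in Klrk1-/- than in WT mice fed SSD, 1 point per mouse, with mean bars and SD whiskers. The SSD-fed Klrk1-/- points lie above the SSD-fed WT points in every panel, and for Hal the means are 8131 and 3596.

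SSD-fed WT mouse 1 weighed on this comparison. Without it 14 genes were higher and none lower, against 2.24% and 3.26% of all genes, the 7 above and Ass1, Asl, Sds, Agxt, Cth, Haao and Prodh. Agxt, at 1.09 ± 0.30 (SE, adjusted p = 0.0823) with all mice, was then 1.36 ± 0.13 (SE, adjusted p = 0.000303). The count was 4 without SSD-fed WT mouse 2, 3 or 4, and 2 (Hal and Gls2) without any 1 of the 3 SSD-fed Klrk1-/- mice. With mice scaled to the same total, which moved the median of all genes to -0.115, or quantile normalized, 4 were higher (Amdhd1, Gls2, Hal and Hpd) and none lower, against 0.671% and 0.938% of all genes higher. Macrophage markers were lower in SSD-fed Klrk1-/- mice, 2 of 12 passing, with summed levels of 5901 to 7362 against 7898 to 19133 in SSD-fed WT mice. Dividing cell markers were lower too, 4 of 5 passing, with 75.4 to 130 against 217 to 1612. Only 4 of these 5 reached the minimum mean in the diet comparison of Klrk1-/- mice. The other could enter the test on SSD through the SSD-fed WT mice, so its difference is not independent of that filter. Of the 9 hepatocyte markers 8 were above 0 on the log2 scale, and their median was 0.29. None of them passed in limma or edgeR, 3 had an unadjusted p under 0.05, and 3 passed in DESeq2. The 6 periportal markers were all below 0, with a median of -0.35, 2 of them at an unadjusted p under 0.05, none passing in limma or edgeR and 1 passing in DESeq2. Of the 8 pericentral markers 7 were above 0, with a median of 0.28, 1 passing in limma and 3 in DESeq2. The 5 cholangiocyte markers were all below 0, with a median of -0.38. The part of these cells in the result was not tested.

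On NCD 5 of the genes passed, against 7 on SSD. The difference was not tested, and after quantile normalization the counts were 10 and 4. Of the 38 genes 2 were higher in Klrk1-/- mice and 3 lower, against 6.41% higher and 6.66% lower among 12845 tested genes, so the share was near that of all genes, and the median log2 fold change was 0.02. After quantile normalization 8 were higher and 2 lower, against 7.01% and 6.80% of all genes. All 6 tested periportal markers were below 0 on NCD as well, with a median of -0.55, 3 passing in limma and 5 in DESeq2, and 4 of 5 cholangiocyte markers were below 0 (median -0.83), 1 passing. Of 12 macrophage markers 11 were below 0 (median -0.15), 1 passing, and the 9 hepatocyte markers had a median of 0.02, 1 passing above 0. Their part in the result was not tested. Prodh was higher by 0.39 ± 0.09 (SE, adjusted p = 0.0159) and Ftcd by 0.31 ± 0.09 (SE, adjusted p = 0.0444). The call of Ftcd was lost without any 1 of 7 of the 8 mice (adjusted p between 0.0527 and 0.133), with the same total in every mouse (adjusted p = 0.0645) and with no minimum mean (adjusted p = 0.0701). Tat was lower, with a log2 fold change of -0.78 ± 0.18 (SE, adjusted p = 0.0174), from 65911 ± 10703 (SD, n = 4) in WT to 39002 ± 10733 (n = 4) in Klrk1-/- mice, though the groups overlapped. Gldc was lower, at -0.57 ± 0.11 (SE, adjusted p = 0.00865), and passed under the 17 alternatives that set no fold limit. Mat1a was lower, at -0.37 ± 0.11 (SE, adjusted p = 0.0456), a call that was lost without any 1 of 7 of the 8 mice (adjusted p between 0.0624 and 0.121). The count of 5 fell to 2 without NCD-fed WT mouse 2 or NCD-fed Klrk1-/- mouse 2 or 3. Of all genes 3.78%, 3.39% and 2.74% were then higher and 3.35%, 3.16% and 2.84% lower. It fell to 3 without NCD-fed WT mouse 3 or NCD-fed Klrk1-/- mouse 1 or 4. There 4.26%, 4.83% and 5.21% of all genes were higher and 4.11%, 4.96% and 5.31% lower.

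**Figure D5:**
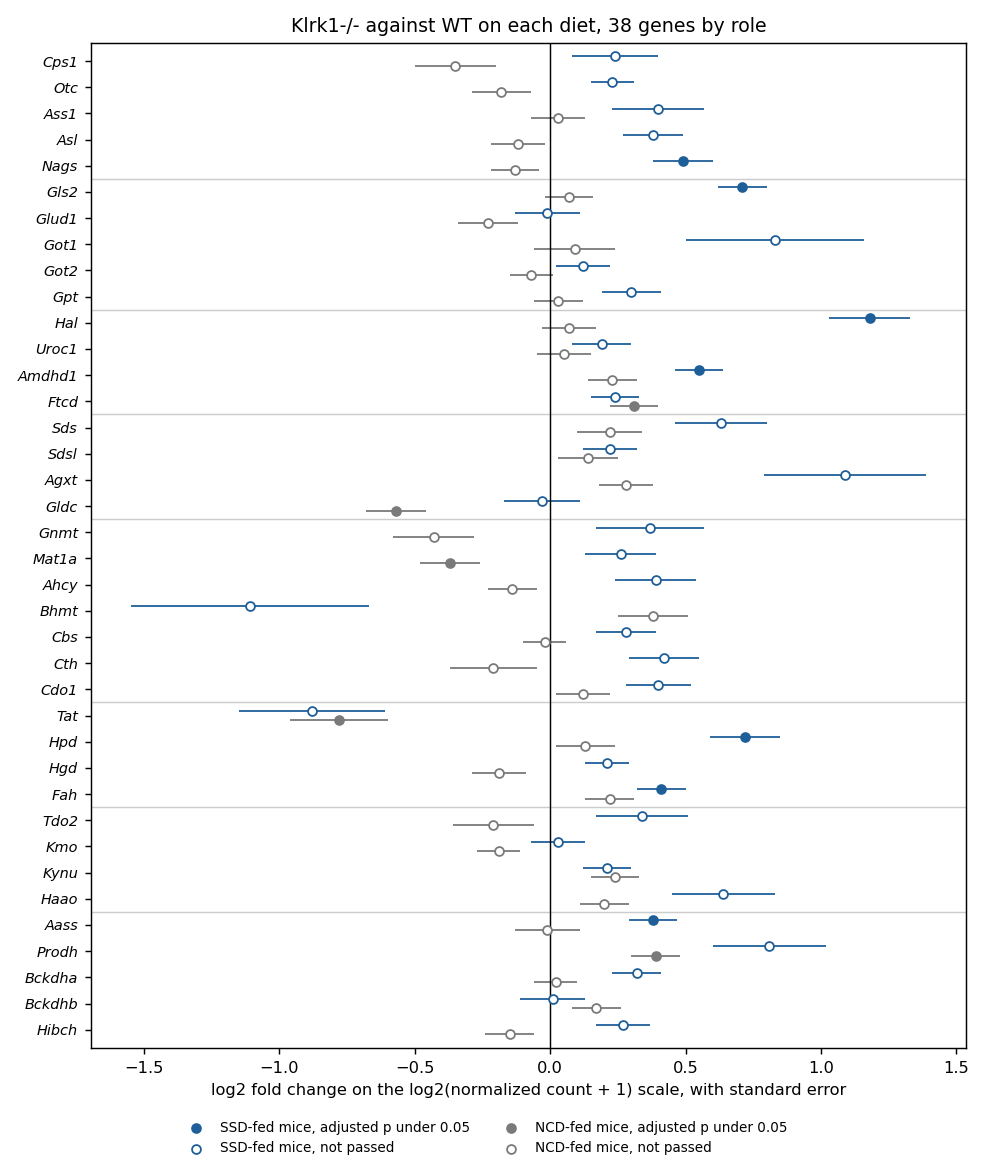
Log2 fold change of Klrk1-/- against WT mice for the 38 genes, ordered by role and divided by grey lines, on SSD (blue) and on NCD (grey). Horizontal lines are standard errors and filled circles passed an adjusted p of 0.05. On SSD 34 of the 38 genes lie right of 0, with Hal at 1.18, and on NCD 20 do.

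The diet by genotype interaction, fitted over all 16 mice, tested whether the diet effect differed between Klrk1-/- and WT mice. It passed for 3 of the 38 genes, all with a smaller fall in Klrk1-/- mice, against 0.321% of 13068 tested genes in that direction and 0.559% in the other. No gene passed with a larger fall in Klrk1-/- mice in limma, edgeR or DESeq2, with 21 and 1 genes in the 2 directions at an unadjusted p under 0.05, against 8.46% and 8.81% of all genes. Hal differed by 1.11 ± 0.18 (SE, adjusted p = 0.0107), falling 2.94-fold in WT and 1.36-fold in Klrk1-/- mice. Gls2 differed by 0.64 ± 0.12 (SE, adjusted p = 0.0176) and Nags by 0.62 ± 0.14 (SE, adjusted p = 0.0466). The call of Nags was lost without any 1 of 13 of the 16 mice and with the same total in every mouse (adjusted p = 0.0769). It was also lost in edgeR (adjusted p = 0.0504), with no minimum mean (adjusted p = 0.0589) and with a minimum mean of 50 (adjusted p = 0.0501). That of Gls2 was lost without SSD-fed Klrk1-/- mouse 3 (adjusted p = 0.0685), with the same total (adjusted p = 0.0582) and after quantile normalization (adjusted p = 0.0831). The call of Hal was kept in each of these settings. With the replicate block, over 12 of the 16 mice, none of the 3 passed (adjusted p = 0.0517 for Hal). Without SSD-fed WT mouse 1 Agxt passed, at 1.08 ± 0.16 (SE, adjusted p = 0.00297). DESeq2 called 8 genes and 1.42% of all genes in that direction, and edgeR 2 genes and 0.275%. In the same fit 3 of 4 tested dividing cell markers passed below 0 (median -2.86), and 10 of 12 macrophage markers were below 0 (median -0.64), 1 passing. Their part in the result was not tested.

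Other genes of amino acid metabolism were followed through lists of 70 further enzymes, 16 transporters and carriers and 13 regulators. On SSD in WT mice 41 of 66 tested enzymes were lower and 11 higher, with a median log2 fold change of -0.43. In Klrk1-/- mice 30 were lower and 8 higher (median -0.23). Among all tested genes 17.6% were lower and 17.3% higher in WT mice, and 16% and 13.4% in Klrk1-/- mice. The largest falls were those of Slc43a1, a transporter of large neutral amino acids, at -3.03 ± 0.14 (SE, adjusted p = 4.94e-08), Acmsd, a branch point of the kynurenine pathway, at -2.62 ± 0.19 (SE, adjusted p = 1.77e-06), and Qdpr, which regenerates the cofactor of phenylalanine hydroxylase, at -1.70 ± 0.12 (SE, adjusted p = 1.95e-06). Among the rises were those of enzymes that make amino acids. Phgdh, the first enzyme of serine synthesis, read 4.42 ± 1.90 normalized counts (SD, n = 4) on NCD and 187 ± 83.4 (n = 5) on SSD. Psat1, the second, rose from 12.8 ± 1.75 (SD, n = 4) to 434 ± 152 (n = 5), 4.92 ± 0.22 on the log2 scale (SE, adjusted p = 2.86e-08). Phgdh, at 2.61 to 7.05 in NCD-fed WT mice, passed the minimum mean of 10 only through the SSD-fed mice, so no p-value is given for its diet effect. The size of that effect depends on the pseudocount. It was 5.08 on the log2 scale with a pseudocount of 1 and 3.69 with 10 in WT mice, and 3.77 and 2.22 in Klrk1-/- mice. Asns, asparagine synthetase, rose by 2.70 ± 0.43 (SE, adjusted p = 0.0007). Sds, Sdsl and Agxt, on the side of serine breakdown, were lower in the same mice.

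Psat1 in Klrk1-/- mice rose by 3.88 ± 0.47 (SE, adjusted p = 0.000115) and Asns by 2.28 ± 0.35 (SE, adjusted p = 0.000611). SSD-fed Klrk1-/- mice had less Phgdh than SSD-fed WT mice, 59.6 ± 8.17 (SD, n = 3), a log2 fold change of -1.55 ± 0.29 (SE, adjusted p = 0.0256). They also had less Cebpb, a C/EBP family transcription factor, at -0.83 ± 0.15 (SE, adjusted p = 0.0213), and less Slc38a2, a neutral amino acid transporter, at -0.43 ± 0.10 (SE, adjusted p = 0.0495). Higher were Bcat2, the mitochondrial branched-chain aminotransferase, at 0.60 ± 0.08 (SE, adjusted p = 0.00838), Slc38a3, a glutamine transporter of periportal hepatocytes, at 0.59 ± 0.11 (SE, adjusted p = 0.0278), and Ivd, which acts in leucine breakdown, at 0.57 ± 0.09 (SE, adjusted p = 0.0114). In that comparison 4 of the 66 tested enzymes were higher and 1 lower, against 1.22% and 1.68% of all genes. Of the transporters, 7 of 15 tested were lower and 1 higher on SSD in WT mice, and 4 lower and 3 higher in Klrk1-/- mice. Of the regulators, 5 of 13 were lower and 2 higher (Ppara and Foxo1) in WT mice, and 1 lower and 1 higher in Klrk1-/- mice. Beside these lists, 17.6% of all tested genes were lower and 17.3% higher in WT mice, and 16% lower and 13.4% higher in Klrk1-/- mice.

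Levels differ widely between these genes. Per kilobase of the deposited gene length, NCD-fed WT mice ranged from 355 normalized counts per kilobase for Sdsl to 59627 for Hpd, with Ass1 at 47187 and Tat at 42089 next. On SSD Hpd was at 32494 and Ass1 at 12663 in WT mice, and at 53150 and 16462 in Klrk1-/- mice. The ranking rests on the deposited lengths, 715 bases for Hpd, 826 for Ass1 and 5555 for Cps1. Whether these match the main transcript of each gene was not checked. Of the 38 genes, 8 overlap another gene of the table (Bckdha, Cth, Gls2, Got2, Hpd, Kmo, Prodh and Sds), and whether the counting used strand is not given in the sources used here.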

How the data were processed

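Liver RNA of 16 mice was sequenced as single-end reads and, per the study's methods, checked with FastQC, aligned to GRCm39 with STAR and counted per gene with FeatureCounts on GENCODE genes. The authors deposited 1 table of normalized counts, read counts divided by 1 size factor per library, a signal value that is not a raw count. How those factors were made is not given in the sources used here. The authors' columns of fold changes and p-values were not used. Whole reads were recovered from the deposited values, 100% of which came out whole within 0.01 of a read, and gave 19892025 to 28936707 reads per library, so counting error was small for these abundant genes. Of 25719 genes, 6948 were at 0 in all mice.

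The main test was limma 3.58.1 (R 4.3.3, trend method) on log2(normalized count + 1), over genes with a mean of at least 10 in the mice compared, with Benjamini-Hochberg adjustment over all genes tested and calls at an adjusted p under 0.05. Only the groups compared entered a fit, except for the interaction, which used all 16 mice. Fold changes are on this log2 scale, and p-values measure the spread between mice. Exact two-sided permutation of mice cannot go below 0.0159 for the diet in WT mice, 0.0571 for the diet in Klrk1-/- mice, 0.0357 for the genotypes on SSD and 0.0286 on NCD. Alternatives were edgeR 4.0.16 and DESeq2 1.42.0 on the recovered reads, other pseudocounts, filters, scalings and fold limits, a replicate block, and leaving out each mouse. The scripts were tested on simulated data.

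1 further gene of the set is not reported here and enters no count of the set. The genes and lists were chosen with earlier results of these data known. Values in every mouse are given for the urea cycle genes and for genes called with a fold change over 2 in any comparison. Of the rest, examples are the largest and smallest changes of each role group on SSD in WT mice, and of the other lists the 3 largest rises and falls. The 3 added promoter motifs and the background of genes with a mean of at least 1000 were chosen after seeing the data. Per the labels the library kit was for mRNA, while the methods name a total RNA kit, and this was not settled.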

Additional observations from a re-analysis of the deposited data

Results flagged for a closer look

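Single mice stood apart from the rest of their group for 5 of 114 combinations of gene and group tested, where chance gives about 1 in 20. The share of the group's range that lay between the mouse and its nearest neighbour was 0.802 for Otc in SSD-fed WT mouse 4 and 0.916 for Otc in NCD-fed Klrk1-/- mouse 4, both the highest of their group. It was 0.874 for Bhmt in NCD-fed Klrk1-/- mouse 1, the highest. For Hpd in SSD-fed WT mouse 1, the lowest, it was 0.763, and for Bckdha in NCD-fed WT mouse 1, the highest, 0.833.

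The interaction test over all mice passed for 3 genes, all with a smaller fall in Klrk1-/- mice, against 0.321% of all tested genes in that direction. The log2 fold change in Klrk1-/- minus that in WT mice was 0.62 for Nags, 0.64 for Gls2 and 1.11 for Hal. None of the 3 passed with the replicate block. The call of Nags was also lost without any 1 of 13 of the 16 mice, and that of Gls2 under both other scalings.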

How the results depend on the processing

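Of 74 calls, 46 kept direction and threshold under every alternative run other than the fold limits. Over all 1289 such checks of the calls, 1162 kept both, 123 lost the threshold and 4 changed sign: on SSD in WT mice Bckdha was 0.09 and Hibch 0.00 with the same total in every mouse, a scale on which the median of all genes was 0.342, and Bckdha was 0.06 and Mat1a 0.02 after quantile normalization. With a fold limit of 1.5 the diet calls were 25 in WT and 15 in Klrk1-/- mice, all lower. Of all tested genes 958 of 13091 and 852 of 12904 were lower at that limit. With a limit of 2 the calls were 14 and 9, all lower, against 379 and 377 of those genes. For the genotypes on SSD, 7 calls became 3 at a limit of 1.5 and 1 at 2, all higher, against 93 and 24 of 13116 genes. They became 4 with the same total or quantile normalization, and 16 by DESeq2. On NCD, 5 calls became 1, lower, at a limit of 1.5, against 369 of 12845 genes. They became 0 at 2 (limma; 0 genes passed both an unadjusted p under 0.05 and 2-fold) and 3 with no minimum mean. There were 10 by quantile normalization and 10 by DESeq2, by which 8.35% of all genes were higher and 9.06% lower. For the interaction, 3 calls became 1 at a limit of 2, against 13 of 13068 genes in that direction. They became 1 with the same total, against 0.161% of all genes, and 8 by DESeq2. Leaving out 1 mouse gave 31 to 33 calls for the diet in WT mice and 25 to 27 in Klrk1-/- mice. Of all genes at most 17.4% and 15.4% were then lower. It gave 2 to 14 calls for the genotypes on SSD, 2 to 7 on NCD and 1 to 3 for the interaction. The shares of all genes moved too. They were 0.114% to 2.24% higher and 0.228% to 3.26% lower on SSD, and 2.74% to 8.31% higher and 2.84% to 8.75% lower on NCD. For the interaction they were 0.0842% to 0.375% above 0 and 0.199% to 1.06% below. The cause of these shifts was not tested.

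Mice that share a replicate number are different animals, and the correlation of their deviations ran from -0.133 to 0.246. Whether a shared number stands for a shared cage or batch is not given in the sources used here. With the replicate block, over the 6 of 8 mice whose number occurs in both groups, there were 5 calls for the genotypes on SSD, 4 higher (Hal, Gls2, Amdhd1 and Prodh) and 1 lower (Bhmt, at -1.56), without Hpd, Nags, Fah and Aass, against 2% higher and 3.40% lower among all genes. There were 11 on NCD, 3 higher and 8 lower, against 8.70% and 9.67%, and 0 for the interaction over 12 of 16 mice (limma; adjusted p of 0.0517 for Hal, 0.106 for Gls2 and 0.126 for Nags), where 20 and 2 genes had an unadjusted p under 0.05 in the 2 directions.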
